A study of Aspergillus nidulans with 48 samples.

Results

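AN0045, AN0693, AN5056, AN8339 and AN8641 are 5 of the 10988 *Aspergillus nidulans* genes in the deposited table of RNA-seq counts and RPKM values (RPKM scales the reads of a gene to its length and to the library's total). Their gene records describe transcripts that light induces in mycelia able to develop, and the study placed them among genes that depended on the transcription factor gene *atfA* in every kind of culture. In untreated mycelia it also classed AN0045, AN5056 and AN8641 as putatively dependent on a second factor gene, *atfB*, and AN8641 in untreated conidia as well. AN0693 and AN8339 were classed there as dependent on *atfA* but not on *atfB* throughout. The 5 genes were chosen by their measured RNA levels, lower without *atfA* in these same libraries, so the values of the Δ*atfA* and Δ*atfA*Δ*atfB* strains against the *atfA*+ strains are given below as a description, with no test. AN5056 is recorded as a homolog of *ccg-1*, a clock-controlled and light-responsive gene of *Neurospora crassa*. The sources used here name no product for the other 4 genes. All 5 genes passed the filter on low values in mycelia and in conidia. No culture of the series compares light with darkness, and how the plates were lit is not given in the sources used here, so the light response itself was not measured.

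In *A. nidulans*, red light is sensed by the phytochrome FphA and blue light by the LreA/LreB complex and the cryptochrome CryA, and light shifts the balance of development from sexual fruiting towards asexual spores (conidia). The phytochrome passes its signal to the HOG pathway, a phosphorelay with a MAP kinase cascade that also carries osmotic and oxidative stress signals, and the kinase HogA (SakA) acts through the bZIP-type factor AtfA. AtfA is known as a factor needed for the stress tolerance of conidia, and AtfB is a second factor of the same family. Menadione sodium bisulfite (MSB) is a redox-cycling compound that generates superoxide inside cells.

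Mycelia and conidia came from 4 strains, namely a control (THS30.3), a strain without *atfA* (Δ*atfA*), one without *atfB* (Δ*atfB*) and one that lacks both (Δ*atfA*Δ*atfB*). All were grown on Barratt's agar at 37 °C untreated or with 0.04 mM MSB (the labels print the unit as Mm), with 3 libraries in each of the 16 groups. Mycelia came from cultures 20 to 33 h old that had not yet formed conidiophores, and conidia from cultures 3 days old. Total counts ran from 12974631 to 36314359 in mycelial and from 8426329 to 24958904 in conidial libraries. The deletions were checked first. Untreated mycelia held 49.7, 39.4 and 40.3 RPKM of *atfA* (AN2911) in the control and 10.98, 11.9 and 11.1 RPKM in the Δ*atfA* strain, and untreated conidia 437, 576 and 521 against 27.2, 26.5 and 67.8 RPKM. The *atfA* reads left in the mutant were few but above 0 in every library. For *atfB* (AN8643), Δ*atfB* mycelia held 0.666, 0.860 and 0.787 RPKM against 3.52, 3.58 and 2.72 in the control. The conidial libraries labelled Δ*atfB*, however, held 241, 216 and 314 RPKM against 253, 307 and 362 in the control, so *atfB* reads were not lost there. AN6798, low in the Δ*atfB* strain, was low in these libraries as well (2.23, 2.69 and 4.30 against 32.01, 39.6 and 33.2 RPKM in control conidia). No ground apart from these data is given for AN6798 as a mark of that strain, so it does not settle which strain they hold. These conidial libraries are called the libraries labelled Δ*atfB* below. Spore markers fitted the cell types, since the green-spore pigment gene *wA* (AN8209) stayed between 0.710 and 2.22 RPKM in all mycelial libraries and reached 382, 637 and 844 RPKM in untreated control conidia. The 9 conidiophore and spore markers summed to 116 to 253 RPKM in untreated control mycelia and to 4229 to 6647 RPKM in untreated control conidia, and none of the 9 was at 0 in any library. The 3 markers of sexual cells summed to 107.8 to 119.1 RPKM in untreated control mycelia. In control conidia they summed to 943.1 to 3228 RPKM untreated and to 288.8 to 326.0 RPKM on MSB. Of these, *mutA* (AN7349) ranged from 5.71 to 3176 RPKM in conidial and from 0.199 to 0.971 RPKM in mycelial libraries. The spore markers therefore do not show that the conidial libraries held spores only.

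All 5 genes were abundant in conidia that carry *atfA*, and mycelia that carry it held them as well. The levels in untreated control conidia were above those in untreated control mycelia for each gene. In untreated control conidia, AN0045 stood at 3776, 4263 and 4492 RPKM in the 3 libraries and had rank 21 of the 10988 genes by mean RPKM. AN0693 had 3541, 3021 and 3333 RPKM (rank 29) and AN5056, the *ccg-1* homolog, 3572, 2963 and 2331 RPKM (rank 33). AN8641 had 1612, 1465 and 1563 RPKM (rank 67), and AN8339, with 989, 1209 and 839 RPKM, was the lowest of the 5 (rank 122). RPKM is a level per kilobase of gene, so these ranks compare genes of different length. They are levels in the spore relative to all its RNA, and fewer cells of a type or less RNA per cell cannot be told apart in such bulk samples.

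In untreated control mycelia the order of the 5 genes was different. AN5056 was the most abundant, with 642, 673 and 551 RPKM (rank 191), and the other 4 were lower by several fold. AN0693 had 106.4, 127 and 89.9 RPKM, AN8339 117, 98.9 and 98.2 RPKM, AN0045 67.2, 78.1 and 59.5 RPKM and AN8641 47.8, 49.4 and 32.8 RPKM. The mean level in conidia was therefore 61.2 times that in mycelia for AN0045, 35.7 times for AN8641, 30.6 times for AN0693, 9.66 times for AN8339 and 4.75 times for AN5056. The median of the same ratio over 8191 genes with at least 1 RPKM in untreated control mycelia was 0.627. The cell types were grown, extracted and sequenced apart, so these ratios are levels side by side and were not tested.

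The order of the 16 groups by mean RPKM was much the same for the 5 genes. The 4 conidial groups with *atfA* (control and labelled Δ*atfB*, untreated and MSB-treated) were the highest for each gene, and the lowest library of these 4 groups lay above the highest library of every other group. Within these 4 groups, neighbours in the order mostly overlapped, except that the untreated control stood clear of the next group for AN0045, AN0693 and AN8641. Below them came the *atfA*+ mycelia. The groups without *atfA* were the lowest, mycelia and conidia alike, apart from AN0045, for which untreated and MSB-treated Δ*atfA* conidia (17.3, 13.6 and 18.4 and 13.1, 23.0 and 18.9 RPKM) ranked just above untreated Δ*atfB* mycelia (23.2, 11.4 and 12.3 RPKM) with overlapping libraries.

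**Figure D1:**
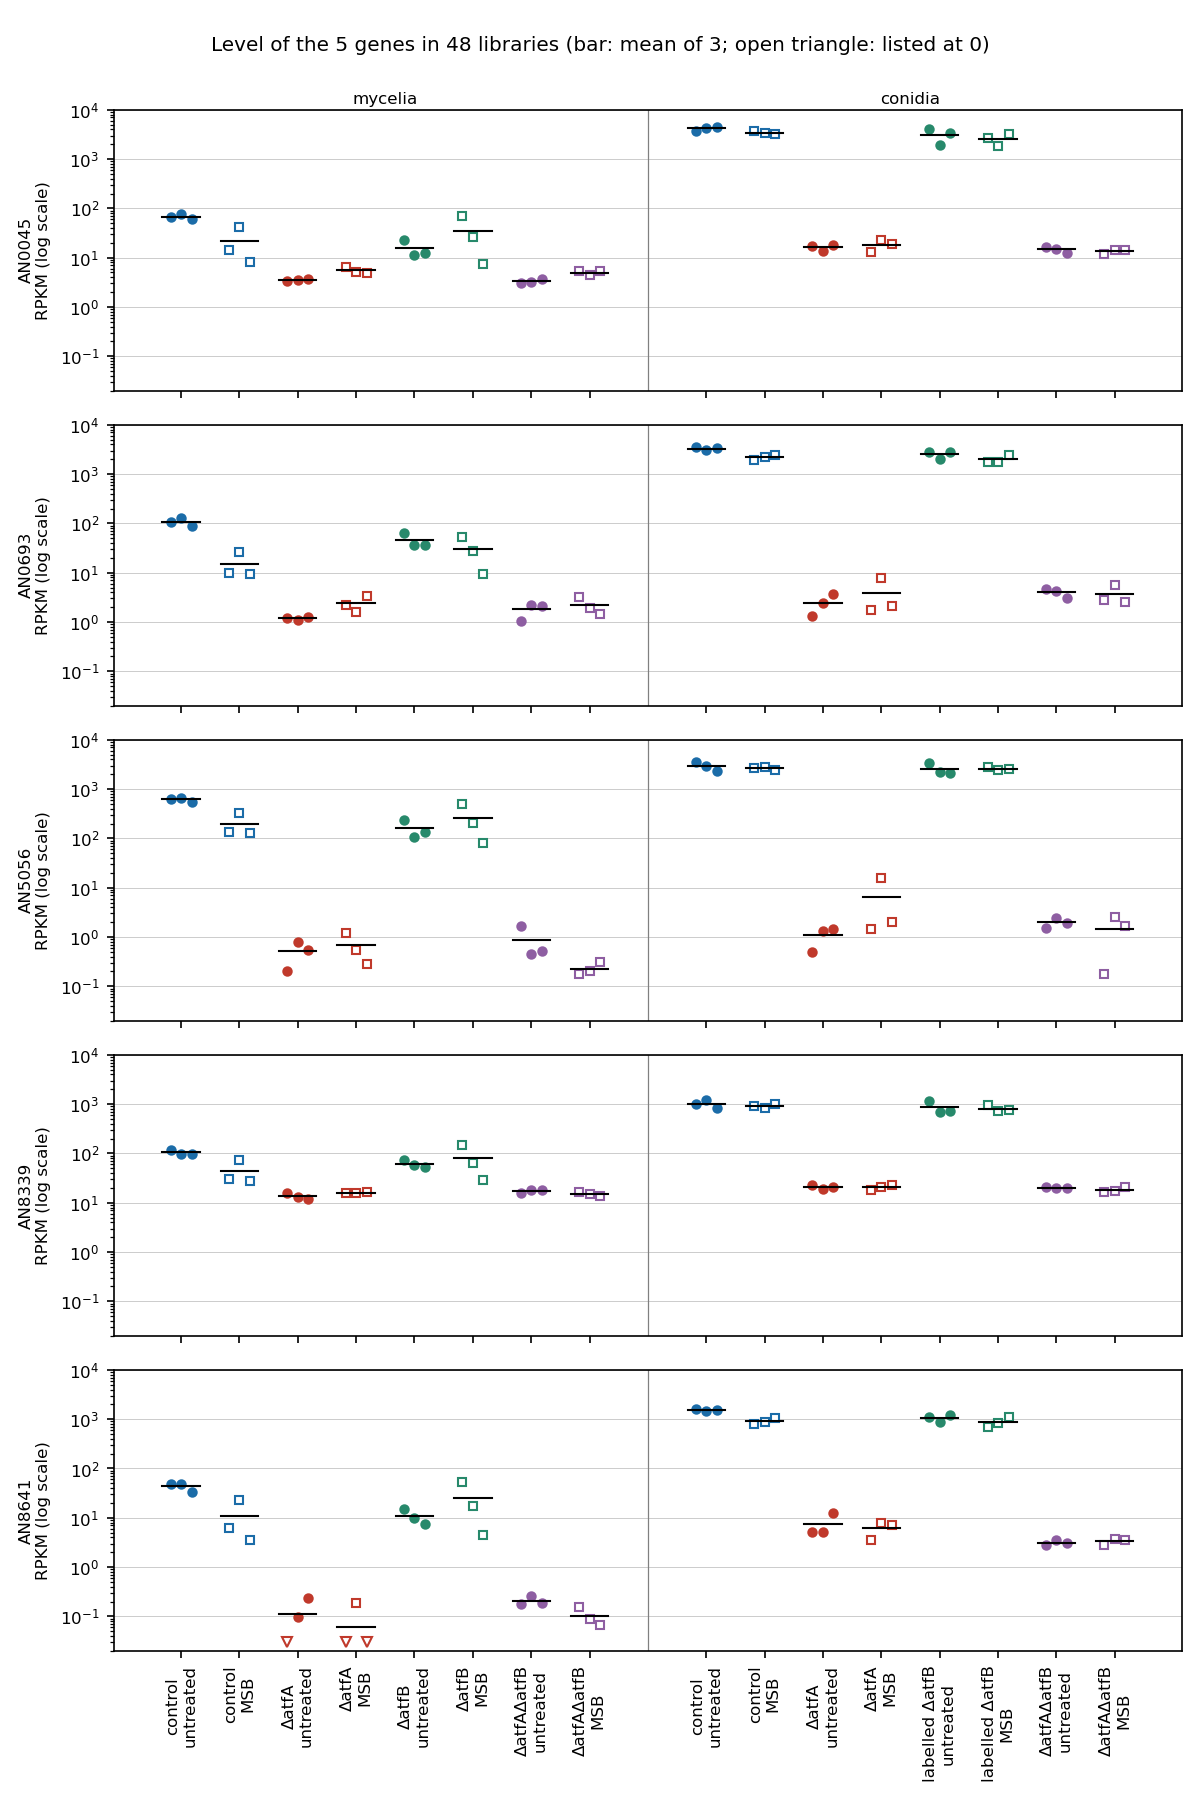
Level of the 5 genes in each of the 48 libraries, in RPKM on a log scale, by cell type, strain and treatment. Filled circles are untreated and open squares MSB-treated libraries, the bar is the mean of 3 libraries, and an open triangle at the lower edge marks a library listed at 0. The groups without *atfA* lie below the *atfA*+ groups of the same cell type and treatment in every panel.

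How much of each transcript was left without *atfA* differed widely between the 5 genes. In untreated mycelia, AN5056 stood at 0.208, 0.796 and 0.552 RPKM in the Δ*atfA* strain, 0.0834% of the control mean (95% counting interval 0.0434% to 0.123%). AN8641 was left with 0, 1 and 3 reads, 0.261% of the control (0.0651% to 0.613%), where the library at 0 allows up to 0.181 RPKM. Both transcripts were close to absent. AN0693 kept 1.22, 1.09 and 1.25 RPKM, or 1.10%, and AN0045 3.28, 3.57 and 3.70 RPKM, or 5.16%. AN8339 kept the most, 15.6, 13.02 and 11.7 RPKM or 12.8% of the control. All 5 were thus lower in Δ*atfA* mycelia, with libraries that did not overlap those of the control, by log2 fold changes from -10.30 (AN5056) to -2.93 (AN8339). In the same comparison 8.87% of the 9199 genes tested in mycelia were downregulated, meaning a log2 fold change below -1 together with a p under 0.05 after Benjamini-Hochberg adjustment in edgeR's quasi-likelihood test. The counting intervals cover counting error only.

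In conidia the mean remainder was smaller for 4 of the 5 genes, all but AN8641. For AN5056 (0.0295% to 0.0596% in conidia) and AN8641 (0.461% to 0.591%) the counting intervals overlapped those of mycelia. Untreated Δ*atfA* conidia held 0.493, 1.33 and 1.49 RPKM of AN5056, 0.0373% of the control mean, and 1.31, 2.43 and 3.63 RPKM of AN0693, 0.0745%. AN0045 kept 17.3, 13.6 and 18.4 RPKM (0.393%), AN8641 5.16, 5.13 and 12.3 RPKM (0.486%) and AN8339 23.1, 19.3 and 20.5 RPKM (2.07%). As a ratio of mean RPKM, the control was thus 48.3 (AN8339) to 2679 (AN5056) times higher, and no library of the mutant reached the lowest control library. The fitted log2 fold changes ran from -12.04 to -6.40, beside 20.4% of the 10143 genes tested in conidia that were downregulated. With library totals in place of the relative log expression factors, the median log2 change of all conidial genes was 0.84 instead of 0.04, and 1126 genes were downregulated and 4343 upregulated instead of 2066 and 1872. RPKM values carry that shift, which is small beside the changes of these 5 genes.

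Other transcripts moved in the same conidial libraries. Of the 9 conidiophore and spore markers, 5 were downregulated and 1 was upregulated in untreated Δ*atfA* conidia. The pigment gene *wA* stood at 22.5, 28.4 and 6.62 RPKM and the developmental activator *brlA* (AN0973) at 291, 259 and 238 RPKM, against 53.03, 84.05 and 82.3 RPKM of *brlA* in the control. The 9 markers summed to 2432 to 8445 RPKM in the mutant and 4229 to 6647 RPKM in the control, most of it from the spore hydrophobin gene *rodA* (AN8803), with 7723, 7249 and 2013 RPKM in the mutant and 3389, 4681 and 5212 RPKM in the control. Of the 2 hyphal markers 1 was upregulated, AN10311, from 429, 227 and 175 RPKM in the control to 1924, 1335 and 1447 RPKM in the mutant. The catalase gene *catB* (AN9339) had 54.4, 47.3 and 51.5 RPKM in the control and 122, 116 and 56.5 RPKM in the mutant and did not pass (0.05, SE 0.22, adjusted p = 0.87). Of the 3 markers of sexual cells, 1 was upregulated and 1 downregulated in these conidia. The part of the cell material in the loss of the 5 transcripts was not tested. In mycelia, where 0 of the 9 spore markers passed the test by edgeR between the untreated Δ*atfA* strain and the control (3 of 9 at an unadjusted p below 0.05, and 0 with DESeq2 or limma), the 5 transcripts were lower as well. Both hyphal markers were downregulated there, and of 3 markers of sexual cells 1 was.

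For the transcripts that remained without *atfA*, the ratio between cell types varied. The ratio over all genes was not taken in the Δ*atfA* strain, and RPKM in its conidia carries the shift given above. A small ratio there is therefore not read as a difference between cell types. In the untreated Δ*atfA* strain the mean level of AN8339 in conidia was 1.56 times that in mycelia, against 9.66 times in the control, and that of AN0693 was 2.07 times against 30.6 times. AN8641 kept a large ratio, at 66.4 times, since it was almost absent from Δ*atfA* mycelia (4 reads in 3 libraries) but kept 5.16, 5.13 and 12.3 RPKM in Δ*atfA* conidia. The mycelial value rests on too few reads to compare this ratio with that of the control.

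On MSB the share left in Δ*atfA* mycelia was larger for all 5 genes, though for AN8641 the counting intervals of the untreated and MSB-treated shares overlapped. The Δ*atfA* mycelia held 6.51, 5.06 and 4.90 RPKM of AN0045 (25.2% of the MSB-treated control), 2.20, 1.62 and 3.39 RPKM of AN0693 (15.8%) and 15.5, 15.7 and 16.2 RPKM of AN8339 (35.9%). The control was lower on MSB, as described below. AN8339 was near its level in untreated Δ*atfA* mycelia, whereas the MSB-treated libraries of AN0045 and AN0693 lay above the untreated ones without overlap, by 0.65 and 1.05 in log2, which did not pass the test. AN5056 was again near absent, at 1.22, 0.533 and 0.283 RPKM (0.340%), and AN8641 had 0, 2 and 0 reads (0.567%, 0.0712% to 2.15%), the 2 libraries at 0 allowing up to 0.40 and 0.246 RPKM. In MSB-treated Δ*atfA* conidia the share left was 0.177% for AN0693, 0.240% for AN5056, 0.532% for AN0045, 0.676% for AN8641 and 2.24% for AN8339. The double mutant gave shares of 0.141% (AN5056) to 16.8% (AN8339) in untreated mycelia and of 0.0670% to 1.996% for the same genes in untreated conidia. In each cell type and treatment, with or without *atfB*, AN8339 kept the largest share. In conidia AN5056 kept the smallest, except on MSB in the Δ*atfA* strain, where its mean rests on replicate 2 (1.48, 15.6 and 2.01 RPKM). In Δ*atfA* mycelia the counting intervals of AN5056 (0.0434% to 0.123% untreated and 0.171% to 0.485% on MSB) overlapped those of AN8641, so the order of these genes was not resolved there.

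**Figure D2:**
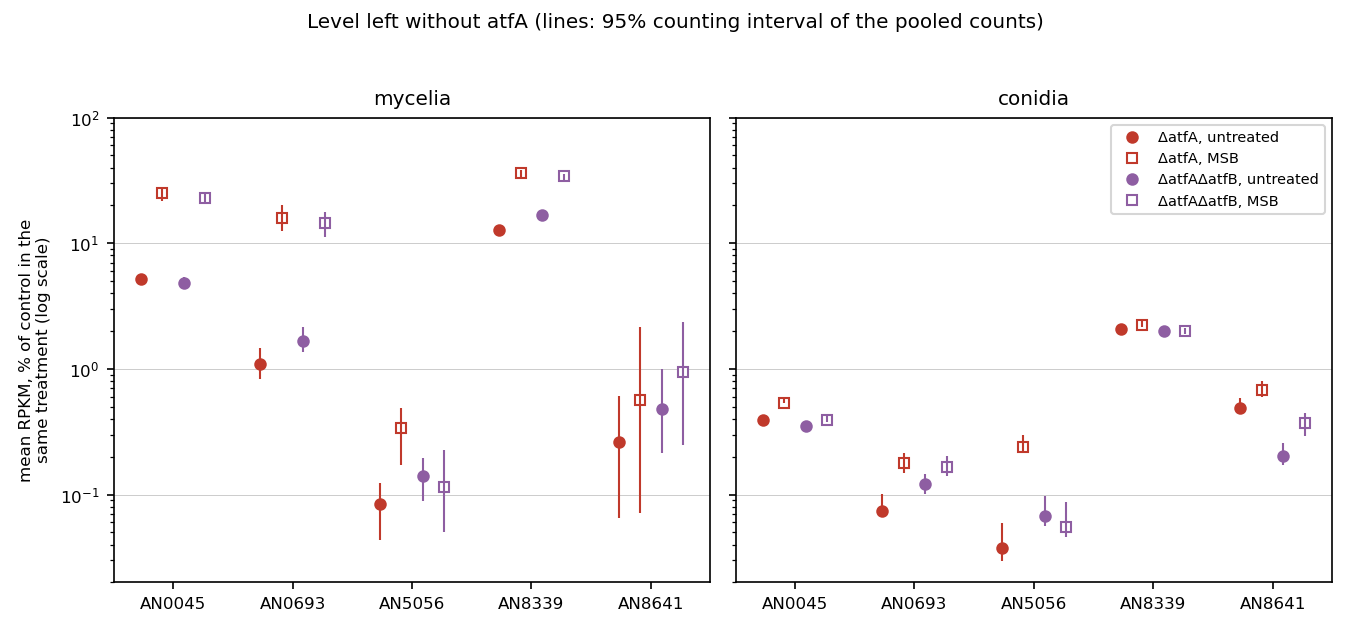
Mean RPKM of each gene without *atfA* as a percentage of the control in the same treatment, on a log scale, with the 95% counting interval of the pooled counts as a line. Filled circles are untreated and open squares MSB-treated cultures. AN8339 keeps 12.8% in untreated Δ*atfA* mycelia and 2.07% in conidia, and AN5056 0.0834% and 0.0373%.

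MSB downregulated all 5 genes in control mycelia. The choice of the genes did not use this comparison, but it did use the same control libraries. AN0693 dropped the most, from 106.4, 127 and 89.9 RPKM in untreated to 9.70, 26.4 and 9.48 RPKM in MSB-treated libraries, a log2 fold change of -2.77 (SE 0.46, adjusted p = 5.0e-05). The untreated and the treated libraries of AN0693 did not overlap. AN8641 went from 47.8, 49.4 and 32.8 to 6.26, 23.0 and 3.59 RPKM, a change of -1.94 (SE 0.60, adjusted p = 0.011). AN0045 stood at 14.5, 42.7 and 8.19 RPKM on MSB, -1.60 (SE 0.53, adjusted p = 0.018), and AN5056, the *ccg-1* homolog, at 134, 334 and 130.5 RPKM, -1.59 (SE 0.45, adjusted p = 0.0059). AN8339 changed least, to 29.6, 74.4 and 27.96 RPKM, -1.21 (SE 0.39, adjusted p = 0.014). Every treated library lay below every untreated one for each of the 5 genes. Beside these 5 of 5, 7.92% of all genes tested in mycelia were downregulated by MSB in the control, and the median log2 fold change was -1.60 for the 5 genes and -0.01 for all genes tested. The study reported its *atfA*-dependent genes of mycelia to be enriched in genes that MSB downregulated. The share of all genes is therefore not the share to expect of genes chosen in this way.

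The MSB-treated control libraries differed among themselves in a common way. Replicate 2 was the highest and replicate 3 the lowest for all 5 genes, with 2.56 to 6.40 times more in replicate 2 than in replicate 3. Without replicate 1 or replicate 3 of the MSB-treated control, or without replicate 1 of every group, 2 of the 5 genes were still downregulated. Within the same libraries *atfA* itself had 59.2, 75.8 and 61.96 RPKM, also highest in replicate 2. Of the conidiophore and spore markers, 2 were downregulated by MSB in control mycelia as well, *brlA* (14.6, 18.9 and 11.8 to 3.29, 2.76 and 1.35 RPKM) and *rodA* (AN8803, 72.5, 195 and 63.99 to 16.0, 27.4 and 3.79 RPKM), while 2 others were upregulated. The 9 markers summed to 42.5 to 67.6 RPKM on MSB. The culture age of single libraries is not given in the sources used here, and the part of culture age or of early conidiation in the change was not tested.

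Where *atfA* was deleted, no change of the 5 genes on MSB passed the test in mycelia. In the Δ*atfA* strain the log2 fold changes ran from -0.56 (AN8641) to 1.05 (AN0693), and those of the double mutant from -1.81 (AN5056) to 0.57 (AN0045). With edgeR 0 of the 5 genes passed in either strain, at an unadjusted p below 0.05 likewise 0, and 0 with DESeq2 or limma, beside 17.5% and 12.7% of all genes called in either direction. For AN5056 and AN8641 the standard errors were large (1.63 and 2.95 in the Δ*atfA* strain), since a handful of reads was left, so a change on MSB was not detectable at this depth for those genes. AN8339 still had 15.6, 13.02 and 11.7 RPKM untreated and 15.5, 15.7 and 16.2 RPKM on MSB, a log2 difference of 0.25 (SE 0.41, adjusted p = 0.63).

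In Δ*atfB* mycelia the 5 genes were lower than in the control without MSB, and no further change on MSB passed the test. Untreated Δ*atfB* mycelia held 23.2, 11.4 and 12.3 RPKM of AN0045, a log2 fold change of -2.16 (SE 0.54, adjusted p = 0.0067) against the control. AN8641 had 14.8, 9.71 and 7.43 RPKM, -2.06 (SE 0.59, adjusted p = 0.015), AN5056 242, 108.6 and 134 RPKM, -1.98 (SE 0.45, adjusted p = 0.0036), and AN0693 65.1, 36.4 and 36.9 RPKM, -1.25 (SE 0.42, adjusted p = 0.034). These 4 genes were downregulated, and their libraries did not overlap those of the control. From the same libraries the study classed AN0045, AN5056 and AN8641, but not AN0693, as putatively *atfB*-dependent in untreated mycelia. AN8339 had 73.1, 57 and 53.7 RPKM, also below every control library, but did not pass the test, -0.80 (SE 0.38, adjusted p = 0.13). Of all genes tested, 1.77% were downregulated in this comparison. DESeq2 called 3 of the 5 genes, and limma 3 at a pseudocount of 0.1 and 4 at a pseudocount of 1. Without replicate 2 of every group 0 of the 5 genes passed, and without replicate 2 or replicate 3 of the untreated Δ*atfB* mycelia 2 did. The level of *atfA* in these libraries was 49.3, 60.1 and 51.6 RPKM, not below the control. By edgeR 3 of the 9 conidiophore and spore markers were upregulated and 0 downregulated there, beside 225 of the 9199 genes tested that were upregulated. *brlA* stood at 71.1, 42.3 and 31.2 RPKM, and the 9 markers summed to 857, 344 and 157 RPKM in the 3 libraries. The part of the *atfA* level or of conidiation in the lower levels of the 5 genes was not tested.

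On MSB, Δ*atfB* mycelia held 70.4, 26.2 and 7.38 RPKM of AN0045, 54.1, 27.5 and 9.49 of AN0693, 506, 210.0 and 80.5 of AN5056, 148, 62.8 and 28.3 of AN8339 and 53.6, 17.4 and 4.44 of AN8641. Replicate 1 was the highest and replicate 3 the lowest library for all 5 genes, with ratios of 5.23 to 12.1 between them. The group reached from near the lowest MSB-treated control library to the level of untreated control mycelia for AN0045, AN8339 and AN8641. In the same 3 libraries *atfA* had 107.8, 70.4 and 42.7 RPKM, with replicate 1 again the highest and replicate 3 the lowest. In untreated libraries the order did not match, as replicate 2 was the highest for *atfA* in Δ*atfB* mycelia and replicate 1 for all 5 genes, and whether the *atfA* level had a part in these differences was not tested. Against untreated Δ*atfB* mycelia the log2 fold changes on MSB were 1.28 (AN8641), 1.19 (AN0045), 0.76 (AN5056), 0.42 (AN8339) and -0.57 (AN0693). None passed the test with edgeR, DESeq2 or limma (adjusted p 0.074 to 0.39 with edgeR, 2 of 5 at an unadjusted p below 0.05), beside 13.7% of all genes in either direction. Leaving out 1 library of these groups gave counts of up to 3. Between MSB-treated Δ*atfB* and MSB-treated control mycelia, likewise, 0 of the 5 genes passed by any of these tools (log2 fold changes 0.38 to 1.15, 2 of 5 at an unadjusted p below 0.05, 3.05% of all genes called), and 3 passed without replicate 2 of the control or without replicate 3 of the mutant.

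The response to MSB differed between the 2 strains for all 5 genes when the difference itself was tested. The response in Δ*atfB* mycelia minus that in control mycelia, on the log2 scale, was 3.21 (SE 0.84, adjusted p = 0.012) for AN8641, 2.79 (SE 0.75, adjusted p = 0.014) for AN0045, 2.35 (SE 0.63, adjusted p = 0.013) for AN5056, 2.20 (SE 0.62, adjusted p = 0.017) for AN0693 and 1.62 (SE 0.54, adjusted p = 0.043) for AN8339. This compares with 2.97% of all genes tested that were higher in this sense. Since the 5 genes were chosen with the same control libraries, that is not the share to expect of them. The call rested on single libraries: without replicate 1 of MSB-treated Δ*atfB* mycelia, or without replicate 1 or replicate 2 of every group, 0 of the 5 genes passed. Without replicate 1 or replicate 3 of the MSB-treated control, or with limma at a pseudocount of 0.1, 3 passed.

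**Figure D3:**
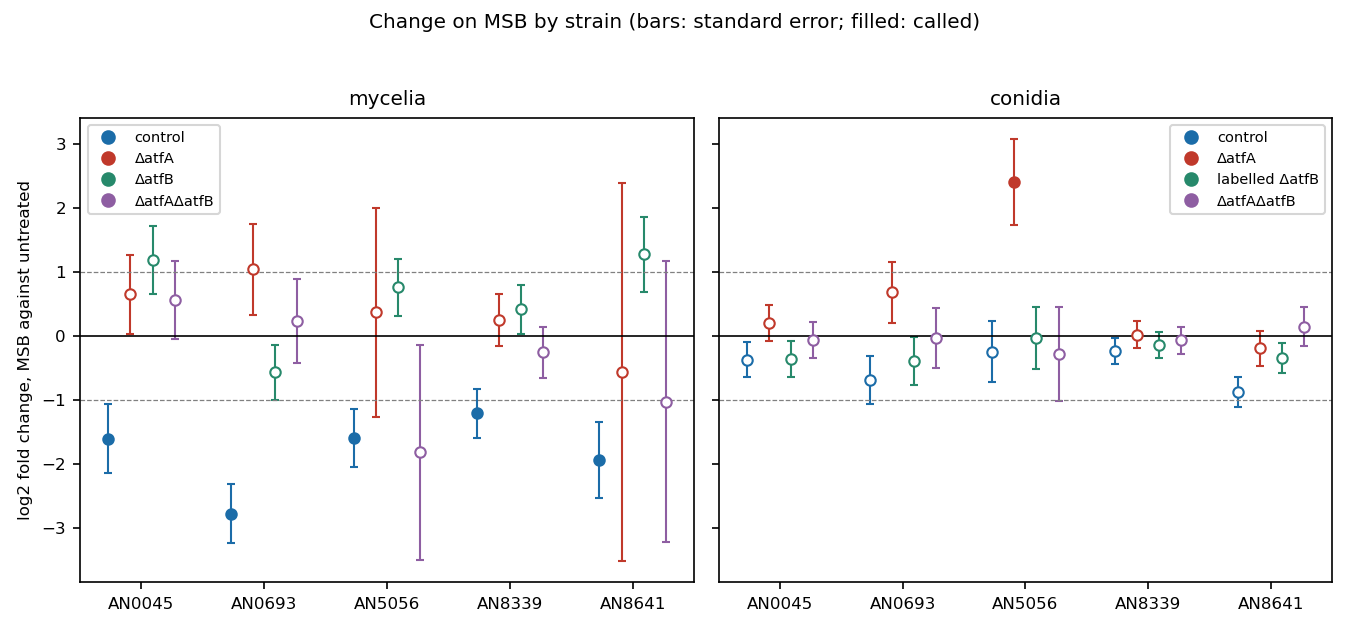
Log2 fold change of each gene on MSB against untreated cultures of the same strain, with its standard error, in mycelia and in conidia. Filled points passed the test (edgeR, adjusted p below 0.05 and a change beyond the dashed lines at 1 and -1). In mycelia the control is below -1 for all 5 genes, and in conidia AN5056 of the Δ*atfA* strain is the only filled point, which rests on 1 library.

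**Figure D4:**
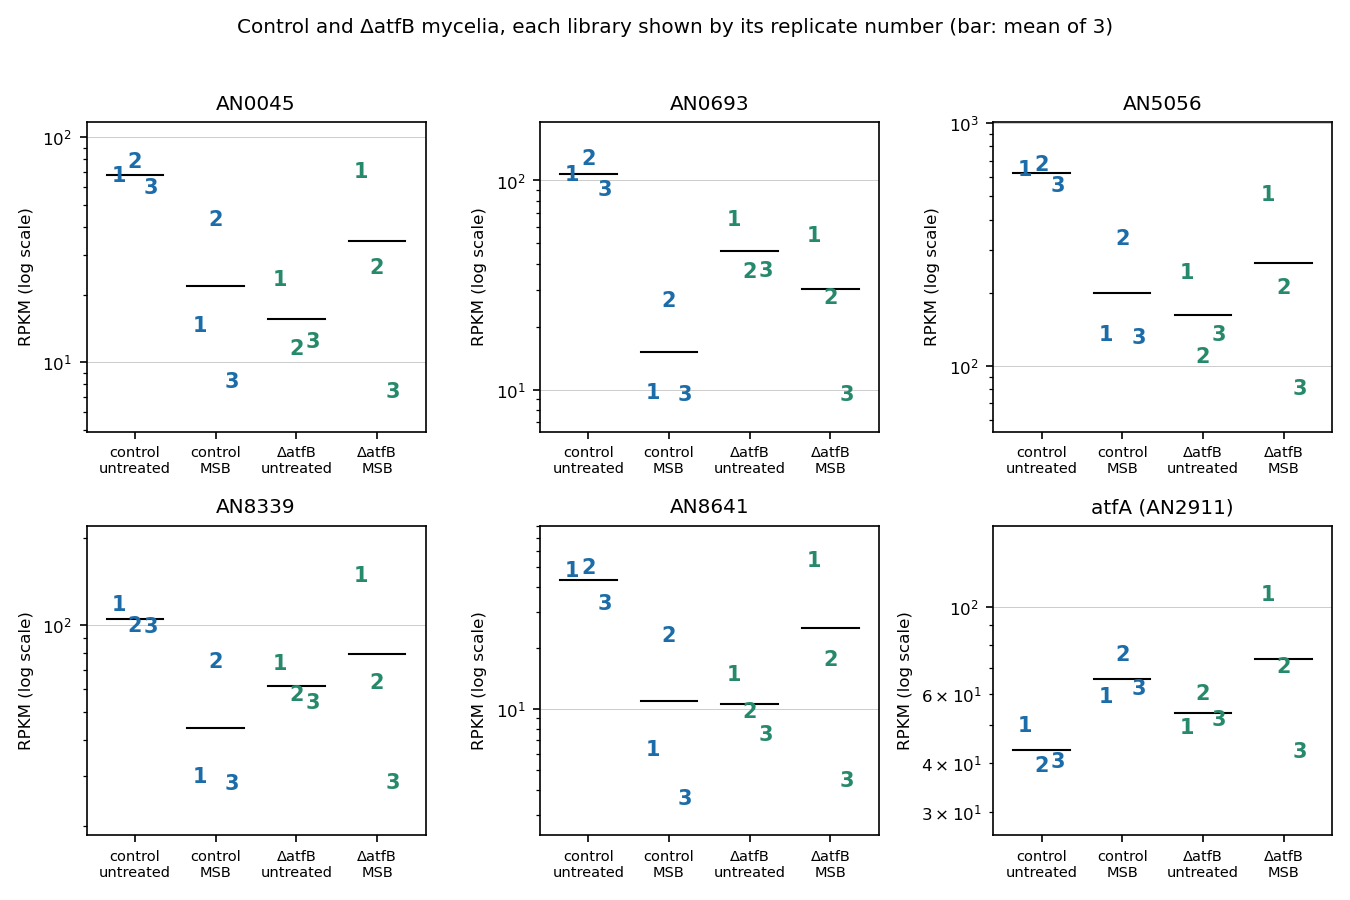
RPKM of the 5 genes and of *atfA* in control and Δ*atfB* mycelia, on a log scale that differs between panels, each library drawn as its replicate number and the mean as a bar. Replicate 2 of the MSB-treated control and replicate 1 of MSB-treated Δ*atfB* mycelia are the highest of their groups in every panel.

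In conidia, where the 5 transcripts were most abundant, no change on MSB passed the test in the strains with *atfA*. In the control, AN0693 stood at 1950.3, 2216 and 2447 RPKM on MSB against 3541, 3021 and 3333 untreated, AN8641 at 789.7, 894 and 1054 against 1612, 1465 and 1563, and AN0045 at 3635, 3434 and 3276 against 3776, 4263 and 4492. These 3 genes had all treated libraries below all untreated ones, but none passed the test, with log2 fold changes of -0.68 (SE 0.38, adjusted p = 0.17), -0.88 (SE 0.24, adjusted p = 0.0091) and -0.37 (SE 0.28, adjusted p = 0.33). AN8641 was short of the fold threshold alone. The values for AN5056 and AN8339 were -0.24 and -0.23. In all, 0 of 5 passed with edgeR (1 of 5 at an unadjusted p below 0.05, and 0 with DESeq2 or limma), beside 14.6% of all genes tested in conidia. In the libraries labelled Δ*atfB* the changes on MSB were -0.39 (AN0693) to -0.03 (AN5056), with 0 of 5 past the test or at an unadjusted p below 0.05, beside 4.27%, and 0 with DESeq2 or limma.

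The libraries labelled Δ*atfB*, which kept *atfB* reads, did not differ from the control beyond the test's thresholds. Untreated, they held 4088, 1947 and 3408 RPKM of AN0045, 2775, 2001 and 2820.0 of AN0693, 3399, 2256 and 2089 of AN5056, 1172, 698 and 731 of AN8339 and 1116, 857 and 1225 of AN8641. All 5 fitted changes were below 0, from -0.89 (AN8641, adjusted p = 0.018) to -0.53 (AN5056), and 0 of 5 passed with edgeR, DESeq2 or limma (3 of 5 at an unadjusted p below 0.05), beside 4.48% of all genes. With library totals the median of all conidial genes in this comparison moved from 0.01 to 0.37. On MSB the changes were -0.72 (AN0045) to -0.31 (AN5056), again 0 of 5 with any of these tools (2 of 5 at an unadjusted p below 0.05) beside 1.97% of all genes. The difference in the MSB response between these libraries and the control was 0.00 (AN0045) to 0.54 (AN8641), with adjusted p of 0.60 or more, 0 of 5 at an unadjusted p below 0.05 and 0 with DESeq2 or limma. No gene of the whole table passed that comparison with edgeR (0% called), whereas DESeq2 called 33 genes up and 13 down, limma at a pseudocount of 1 called 4 and 1, and edgeR on batch 1 alone 90 and 116.

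Among conidia without *atfA*, 1 gene was upregulated by MSB. AN5056 had 0.493, 1.33 and 1.49 RPKM in untreated and 1.48, 15.6 and 2.01 RPKM in MSB-treated Δ*atfA* conidia, a log2 fold change of 2.41 (SE 0.67, adjusted p = 0.0098), beside 6.38% of all genes upregulated. Replicate 2 of the treated group alone was high, and without it 0 of the 5 genes passed. Without replicate 1 of every group, and with limma, 0 passed as well. The same library was the highest of its group for AN0045, AN0693 and AN8641, with 7.85 RPKM of AN0693 against 1.77 and 2.09. In the double mutant on MSB, AN5056 had 0.182, 2.56 and 1.64 RPKM, and 0 of the 5 genes changed on MSB with edgeR, at an unadjusted p below 0.05, with DESeq2 or with limma (1.24% of all genes).

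Deleting *atfB* in addition to *atfA* was followed by a change that passed the test for 1 of the 5 genes, in conidia. AN8641 stood at 2.83, 3.54 and 3.06 RPKM in untreated Δ*atfA*Δ*atfB* conidia against 5.16, 5.13 and 12.3 RPKM in Δ*atfA* conidia, a log2 fold change of -1.25 (SE 0.29, adjusted p = 0.0059), beside 6.49% of all genes downregulated. The libraries of the 2 strains did not overlap, but replicate 3 of the Δ*atfA* strain, of the second batch, was the highest (12.3 RPKM), and within batch 1 alone, without replicate 3 of either group, without replicate 1 of every group or with limma at a pseudocount of 1 the gene did not pass. In these conidia *atfB* was low in the double mutant (1.94, 2.67 and 2.13 RPKM) and higher in the single mutant (56.3, 46.8 and 41.4 RPKM). The study, from the same libraries, classed AN8641 as putatively dependent on both genes in untreated conidia. The other 4 genes differed by -0.21 (AN0045) to 0.69 (AN5056) in log2. On MSB, 0 of 5 passed with edgeR, DESeq2 or limma in conidia (2 of 5 at an unadjusted p below 0.05, 1.11% of all genes). In mycelia 0 of 5 passed without or with MSB, 0 at an unadjusted p below 0.05 and 0 with DESeq2 or limma, beside 6.73% and 2.66% of all genes. AN8339, which kept the most reads, had 15.9, 18.5 and 18.5 RPKM in untreated double-mutant mycelia, a difference of 0.42 (SE 0.40, adjusted p = 0.49) from the Δ*atfA* strain. AN8641 had 0 to 4 and AN5056 2 to 16 reads per library in these groups, so a difference was not detectable at this depth for those genes.

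Across the 48 libraries the 5 genes followed each other closely. Pearson's r of log2(RPKM + 0.1) between 2 of them ran from 0.859 (AN0045 and AN5056) to 0.988 (AN0693 and AN8339) over the 10 pairs. Within the 24 mycelial libraries r was 0.890 to 0.975, and within the 24 conidial libraries 0.984 to 0.998. These are descriptions, since the libraries of a group are alike and the strain difference that chose the genes is part of the spread.

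Other genes had closely similar profiles. For each of the 5 genes the 3 most similar of 8150 genes, by the same r, were listed. For AN0045 they were the conidial catalase gene *catA* (AN8637, r = 0.991), AN2823, with a predicted mechanosensitive ion channel domain (0.989), and AN11016 (0.988). AN0693 was closest to AN6301 (0.991), AN8339 (0.988) and the putative transketolase gene AN9180 (0.984), and AN8339 to AN0693 (0.988), AN6301 (0.987) and AN12198 (0.986). AN5056 had AN8959 (0.9799), AN8975 (0.966) and AN6704 (0.964), and AN8641 had AN2404 (0.989), AN5004 (0.988) and AN7826 (0.983). AN5004 is itself a gene recorded as light-induced. With a pseudocount of 1 the first place changed for AN0045, AN0693, AN5056 and AN8339 (AN2894, AN8339, AN8975 and AN7826), and AN2404 stayed first for AN8641, so the exact neighbours depended on the treatment of low values.

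AN8641 lies in a run of genes that shared its pattern. In the gene order of the ASM1142v1 assembly it stands between AN8642, with *atfB* (AN8643) beyond, and *conF* (AN8640), a conidiation gene, followed by AN8639, a putative trehalose-phosphate synthase gene, *cetJ* (AN8638), a spore transcript, and *catA* (AN8637). Untreated control conidia held 4770.3 ± 328 RPKM of *conF*, 731 ± 49.8 of AN8639, 5775 ± 425 of *cetJ* and 1767 ± 212 of *catA* (SD, n = 3 each). In Δ*atfA* conidia the same genes were left with 0.0802%, 1.62%, 0.0351% and 0.0839% of the control mean, beside 0.486% for AN8641. In mycelia *conF* was listed at 0 in all 3 untreated Δ*atfA* libraries against 6.55, 12.9 and 7.11 RPKM in the control. Of the 9 neighbours taken (AN8636 to AN8640, AN8642 to AN8644 and AN8646), 8 were downregulated in untreated Δ*atfA* conidia, beside 20.4% of all genes. In untreated Δ*atfA* mycelia 6 of the 8 tested were, beside 8.87% of all genes. AN8645, between AN8644 and AN8646, was not among those taken. AN8644, on the far side of *atfB*, was not (log2 fold changes 0.64 in conidia and 0.32 in mycelia). AN8642 and AN8644 were named after their values were seen. The neighbours were chosen with results of these libraries known, so these counts are a description.

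The neighbours of AN8641 were also lowered by MSB in control mycelia, 7 of the 8 tested, beside 7.92% of all genes. They were chosen with results of these libraries known, so this count too is a description. *atfB* is among the neighbours, and *conF* and *cetJ* are also on the list of other light-induced genes below. The largest change among the 8 was that of *conF* (-4.01, SE 0.58, adjusted p = 1.8e-05), and AN8639 fell from 26.2, 27.9 and 23.1 to 1.49, 3.52 and 0.856 RPKM (-3.66, SE 0.43, adjusted p = 9.0e-07). The response to MSB was higher in Δ*atfB* than in control mycelia for 4 of the 8, AN8639 (2.15, SE 0.57, adjusted p = 0.013) and *conF* (2.87, SE 0.83, adjusted p = 0.022) among them, as for AN8641 itself.

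**Figure D5:**
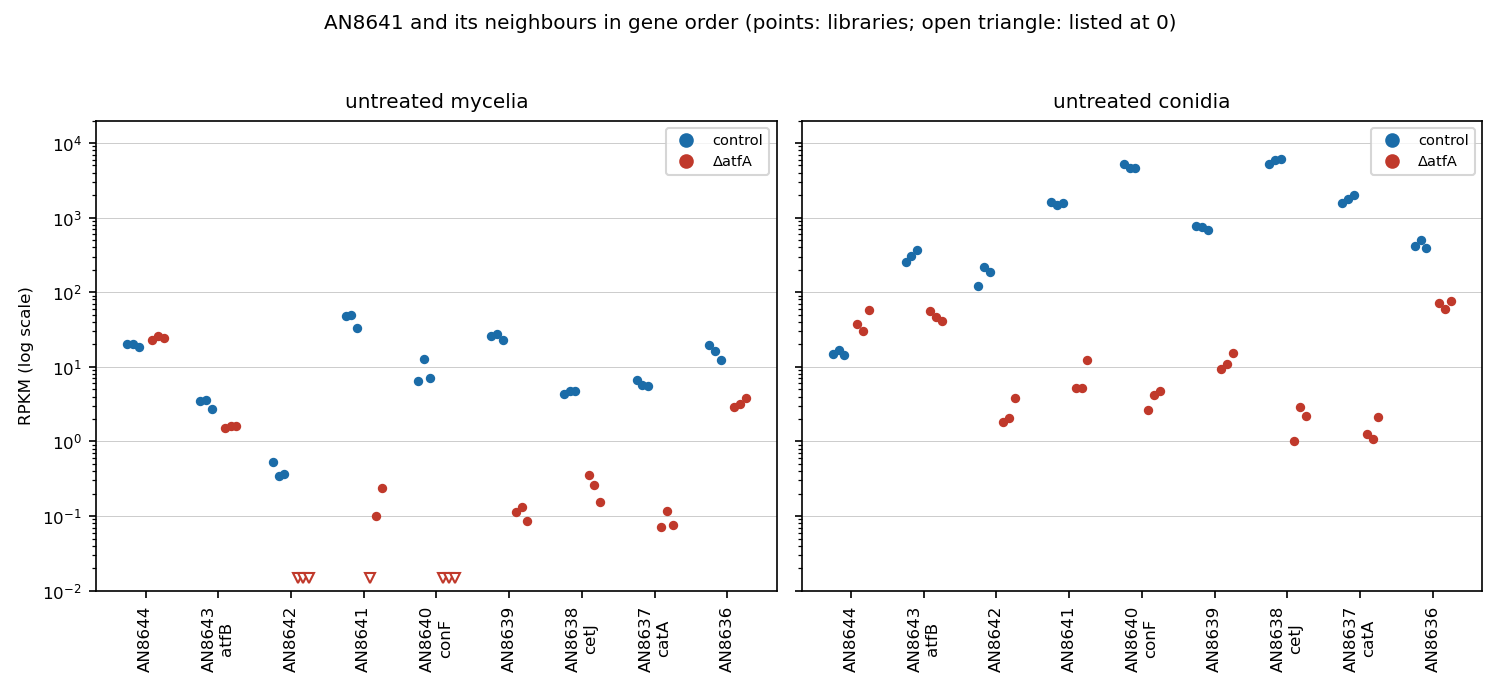
RPKM of AN8641 and of genes on either side of it, in the order of the ASM1142v1 assembly, in untreated control and Δ*atfA* libraries, on a log scale. Each point is a library and an open triangle at the lower edge one listed at 0. In conidia the Δ*atfA* libraries lie far below the control from AN8642 to *catA*. In mycelia AN8642 is near 0 in both strains (control mean 0.410 RPKM, not tested), and AN8644 is not lower in either cell type.

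Next to the other genes, chosen after their values were seen, some neighbours shared the pattern and others did not. Beside AN0693, AN0694 had a mean of 2859 RPKM in untreated control conidia and 2.24 RPKM without *atfA*. Beside AN5056, AN11456 had 31.3 RPKM in control conidia and was listed at 0 in untreated Δ*atfA* mycelia and conidia. The nearest neighbours of AN0045, AN0044 and AN0046, kept 127% and 88.8% of their control level in Δ*atfA* conidia and did not pass the test. Beside AN8339, AN8340 rose in Δ*atfA* mycelia from a mean of 0.770 to 12.4 RPKM, the opposite of AN8339. In Δ*atfA* conidia, however, AN8340 was downregulated like AN8339, from a mean of 0.401 to 0.114 RPKM. AN8338, on the other side of AN8339, was downregulated in Δ*atfA* conidia too, from a mean of 25.98 to 5.35 RPKM, and did not pass in mycelia. Whether counting used strand is not given in the sources used here, and reads where neighbouring genes overlap may have gone to either.

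Other genes recorded as light-induced were lower without *atfA* too. The list holds 11 genes, most of them taken by the study from calls on these same libraries, so it is not independent evidence of its direction. *cetJ* and *conF*, counted above among the neighbours of AN8641, are on it as well. In untreated Δ*atfA* conidia 11 of 11 were downregulated (median log2 fold change -8.23), beside 20.4% of all genes. In untreated Δ*atfA* mycelia 9 of the 10 tested were (median -3.04), beside 8.87% of all genes. The most abundant were *ccgA* (AN9285), the other homolog of *ccg-1*, *conJ* (AN5015), a conidiation gene, AN4299 and *cetJ*. In control conidia *ccgA* had 19639, 13199 and 15178 RPKM, and without *atfA* 27.4, 46.5 and 85.5 RPKM. The 2 *ccg-1* homologs were abundant in control mycelia too, where *ccgA* had 1516, 2222 and 1656 RPKM, more than AN5056. *conJ*, by contrast, had 1.66, 2.46 and 1.496 RPKM in mycelia and 11250.2, 10859 and 10504 RPKM in conidia.

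On MSB, 7 of the 10 listed genes tested were downregulated and 1 was upregulated in control mycelia (median -1.39), beside 7.92% of all genes downregulated. *ccgA* (AN9285) fell from 1516, 2222 and 1656 to 192, 448 and 138 RPKM (-2.75, SE 0.41, adjusted p = 1.5e-05), and AN4299 from 434, 521 and 451 to 158, 304 and 117 RPKM (-1.23, SE 0.36, adjusted p = 0.0075). *conJ* did not pass (-0.78, SE 0.68, adjusted p = 0.37). In untreated Δ*atfB* mycelia 5 of 10 were downregulated, beside 1.77% of all genes (median -0.94), against 4 with DESeq2, 3 with limma at a pseudocount of 0.1 and 4 at a pseudocount of 1. The response to MSB was higher in Δ*atfB* than in control mycelia for 4 of 10, beside 2.97% of all genes (median 1.39), and for 4 with DESeq2 or limma. Of the *ccg-1* homologs, *ccgA* was at 2259.8, 874 and 1343 RPKM in untreated Δ*atfB* mycelia and did not pass (-0.30, SE 0.38, adjusted p = 0.6), while AN5056 was downregulated, but the difference between the 2 genes was not tested. Of the 4 genes recorded as repressed by light, 3 were tested in mycelia, and 2 of them, *ivoB* (AN0231) and AN3304, were downregulated by MSB in the control. In untreated Δ*atfA* conidia 2 of 4 were upregulated, *ivoB* among them, from 0.681, 0.601 and 1.09 to 46.1, 42.3 and 14.7 RPKM.

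The light sensors themselves were followed as well. Of 6 sensor and light-signalling genes, 2 were downregulated in untreated Δ*atfA* mycelia, the cryptochrome gene *cryA* (AN0387, -2.09, SE 0.23, adjusted p = 3.0e-07) and the opsin gene *nopA* (AN3361, -3.69, SE 0.34, adjusted p = 4.2e-08), beside 8.87% of all genes. The phytochrome gene *fphA* (AN9008) did not pass in mycelia (0.17, SE 0.15, adjusted p = 0.38) or conidia (-0.29, SE 0.16, adjusted p = 0.12). In untreated Δ*atfA* conidia 3 were downregulated, with *nopA* at 51.4, 60.2 and 61.9 against 2715, 2321 and 2673 RPKM in the control, and the velvet gene *veA* (AN1052) was upregulated (60.3, 56.7 and 67.1 to 438, 387 and 443 RPKM). In control mycelia MSB lowered *nopA* alone of the 6 (-1.83, SE 0.31, adjusted p = 6.3e-05). Of the 8 genes from the osmosensor *tcsB* to *atfA* and *atfB*, 2 were downregulated in untreated Δ*atfA* mycelia, and those were *atfA* and *atfB* themselves. In untreated Δ*atfA* conidia 5 were downregulated, *atfA* and *atfB* again among them, beside 20.4% of all genes, and 1 was upregulated. The kinase gene *hogA* (AN1017) was lower there, at 272, 272 and 192 RPKM against 798, 741 and 771 RPKM in the control. The phosphotransfer gene *ypdA* (AN2005) was lower as well, at 80.9, 82.5 and 131 against 297, 273 and 207 RPKM.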

How the data were processed

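RNA from mycelia and conidia on agar plates was sequenced as single reads of 75 bases. Per the labels and the study's methods the authors mapped reads with HISAT2 2.1.0 to the FGSC A4 genome, and the submitters' processing notes also name DESeq2 1.24.0. The read counter, its annotation and its use of strand are not given in the sources used here. The deposited table holds raw counts per gene, gene lengths and RPKM values, which the authors computed with edgeR. RPKM recomputed from the counts and lengths differed from the deposited values by a relative 3.2e-14 at most, 0 pairs of libraries were identical, and 0 columns were left unused.

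Counts were fitted with edgeR 4.0.16 (R 4.3.3), quasi-likelihood F test, for mycelia and conidia apart (24 libraries and 8 groups each), with relative log expression factors, genes of at least 0.5 RPKM in at least 3 libraries, and a batch term in conidia (replicates 1 and 2 against replicate 3). A gene was called when its log2 fold change was beyond 1 and its p, after Benjamini-Hochberg adjustment over all genes tested, was under 0.05. The standard error (SE) is the log2 fold change divided by the square root of F. Alternatives were TMM factors, library totals, no filter, DESeq2 1.42.0, limma 3.58.1 on log2(RPKM + 0.1) and log2(RPKM + 1), batch 1 alone, no batch term, a replicate block and leaving out libraries. The fit was tested on simulated data. The libraries of a group are described as biological replicates, and the p-values measure the spread between them. The genotype label of the double mutant names Δ*atfB* in both places, and its strain was taken from the titles.

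The 5 genes and the gene lists were chosen with earlier results of these data known. Named are the 5 genes, up to 4 genes of each list with the highest mean RPKM, the 3 genes most like each of the 5 by Pearson's r among genes with a group mean of at least 10 RPKM, and *atfA*, *atfB* and AN6798 as checks of the labels. Gene order came from RefSeq (ASM1142v1). Counting intervals are 95% intervals, and a count of 0 was given a limit of 3 counts.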

Additional observations from a re-analysis of the deposited data

Results flagged for a closer look

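The response of the 5 genes to MSB differed between Δ*atfB* and control mycelia by a test of the difference itself (edgeR, 3 libraries in each group). The response in Δ*atfB* minus that in the control, as a log2 value, was 2.79 for AN0045, 2.20 for AN0693, 2.35 for AN5056, 1.62 for AN8339 and 3.21 for AN8641. All 5 were above 0. In the control all 5 were downregulated on MSB. In the mutant no change passed the test, with a value below 0 for AN0693 and values above 0 for the other 4. Replicate 1 of MSB-treated Δ*atfB* mycelia was the highest library of its group for each gene, and without it 0 of the 5 differences passed.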

How the results depend on the processing

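Of the counts of called genes recomputed under alternatives, 286 stayed within 1.5 times and 32 moved. Among the values of single genes, 2310 kept their direction and their side of the threshold or, where no test was read, moved by less than the SE of the main fit. Of the rest, 139 moved by more than that SE, 62 no longer passed the test, 17 now passed it and 82 changed sign. Leaving out libraries moved the counts most. In mycelia, the 5 genes called for MSB in the control became 2 to 5, the 0 for MSB in Δ*atfB* 0 to 3, the 4 for untreated Δ*atfB* against the control 0 to 4, the 0 for the same strains on MSB 0 to 3 and the 5 for the difference in response 0 to 5. In conidia the 0 for MSB in the control became 0 to 1, the 1 for MSB in Δ*atfA* 0 to 1, the 0 for untreated libraries labelled Δ*atfB* 0 to 2 and the 1 for the untreated double mutant against Δ*atfA* 0 to 1. With limma at a pseudocount of 0.1 the difference in response gave 3 genes and MSB in Δ*atfA* conidia 0, and at a pseudocount of 1 the latter and the double mutant comparison gave 0. Batch 1 alone gave 0 for that comparison. The cause was not tested.

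The 82 sign changes fell on 27 combinations of gene and comparison, and none of the 82 values had an adjusted p below 0.05, nor did the 27 with all libraries. Leaving out libraries gave, in mycelia, -0.65 to 1.74 (AN0045), -0.0226 to 1.68 (AN0693), -0.72 to 1.11 (AN5056), -0.22 to 1.57 (AN8339) and -0.36 to 2.50 (AN8641) for Δ*atfB* against the control on MSB, -0.12 to 1.20 (AN5056) and -0.40 to 0.83 (AN8339) for MSB in Δ*atfB*, -0.68 to 0.91 (AN5056) and -3.57 to 1.32 (AN8641) for MSB in Δ*atfA*, -0.39 to 0.59 (AN0693) for MSB in the double mutant, -0.39 to 1.60 (AN5056) for the untreated double mutant against Δ*atfA* and -0.60 to 0.46 (AN0693), -0.17 to 0.0158 (AN8339) and -0.19 to 3.6 (AN8641) for these strains on MSB. In conidia the ranges were -0.11 to 0.44 (AN0045), -0.37 to 1.42 (AN0693), -0.0616 to 0.15 (AN8339) and -0.66 to 0.26 (AN8641) for MSB in Δ*atfA*, -0.22 to 0.23 (AN5056) and -0.35 to 0.22 (AN8339) for MSB in libraries labelled Δ*atfB*, -0.20 to 0.13 (AN0045), -0.54 to 0.25 (AN0693), -0.81 to 0.15 (AN5056) and -0.20 to 0.032 (AN8339) for MSB in the double mutant, -0.65 to 0.94 (AN0693) for the double mutant against Δ*atfA* on MSB and -0.29 to 0.42 (AN0045) and -0.21 to 0.46 (AN8339) for the difference in response. In conidia signs also changed with library totals (AN8339 on MSB in Δ*atfA* -0.0203, AN5056 on MSB in libraries labelled Δ*atfB* 0.0176, AN0045 in the difference in response -0.0305), with limma at pseudocounts of 0.1 and 1 (the same values for AN8339 -0.0265 and -0.0253 and for AN5056 0.0273 and 0.0273, and AN0693 in the double mutant against Δ*atfA* on MSB 0.14 and 0.0729) and in batch 1 alone (MSB in Δ*atfA*, AN8339 -0.0616 and AN8641 0.26, MSB in the double mutant, AN0693 0.0627, and the difference in response, AN0045 -0.25).

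Libraries with the same replicate number did not deviate together in every pair. Over 84 pairs, r of their deviations from the group means was -0.245 to 0.194 in mycelia (median 0.00542, 13 over 0.1) and -0.166 to 0.636 in conidia (median 0.08, 39 over 0.1), where replicate 3 is the second batch. Since not every pair was over 0.1, the numbers were not taken as pairs. With a replicate block the counts of called genes were those without it, such as 5 for MSB in control mycelia, 4 for untreated Δ*atfB* mycelia, 5 for the difference in response and 0 for MSB in control conidia. In mycelia, AN5056 and AN8641 had too few reads without *atfA* for a change on MSB to be detectable.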

Other observations

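The genes recorded as repressed by light were also followed in conidia on MSB. Of the 4, 2 were upregulated by MSB in control conidia and 0 downregulated, with a median log2 fold change of 2.14 beside -0.01 for all genes tested. *ivoB*, a gene of a conidiophore pigment, had 0.681, 0.601 and 1.09 RPKM in untreated and 4.19, 3.80 and 3.69 RPKM in MSB-treated control conidia. The 11 other light-induced genes gave 3 downregulated and 0 upregulated in that comparison, with a median of -0.22.

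In mycelia, the kinase gene *hogA* had 406, 261 and 151 RPKM in the 3 MSB-treated Δ*atfB* libraries, in the same order as *atfA* and the 5 genes, and 159.6, 177 and 154 RPKM in the untreated ones. Whether these orders are linked was not tested.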
